A study of Mus musculus with 1536 samples.

Results

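The cells described here were principal dorsal raphe (pDR) serotonin neurons that held Slc17a8 RNA and no RNA of either GABA-synthesising enzyme. They were chosen by measured values: a pDR cell was a member when Slc17a8 stood at 10 CPM (reads of a gene scaled by the cell's total on genes) or more and neither Gad1 nor Gad2 had a read. This gate took 80 of the 290 pDR cells, which were 27.6% of them (exact Clopper-Pearson 95% interval 22.5 to 33.1%), out of 999 cells in the expression table. The cells came from mice of 40 to 45 days, labelled as a Sert-tdTomato-Cre cross with Ai14 on C57BL/6J, in which Cre driven by the serotonin transporter gene turns on tdTomato. Fluorescent cells were sorted singly into plates and sequenced by Smart-seq2, a full-length method with no molecular identifiers. One dissection took the principal DR, on the 5 plates SER12, SER13, SER25, SER39 and SER40, and the other, labelled All DR, took DR and MR together per the study's methods, on 11 plates with 709 cells, without a label that says which cell came from which nucleus. Mice of both sexes were used. The labels name no animal and do not tie plates to brains, so each dissection counted as 1 sample and no p-value was computed. All intervals cover counting error only.

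Slc17a8 encodes Vglut3, a vesicular transporter that loads glutamate into synaptic vesicles, and many serotonin neurons carry it and can release glutamate along with serotonin. Gad1 and Gad2 encode the enzymes that make GABA from glutamate, and other dorsal raphe serotonin neurons carry their RNA.

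Gate values are given as a description. Slc17a8 ran from 11.5 to 836 CPM in the members, with a median of 213 CPM. The remaining 210 pDR cells fell into 3 classes by the same genes: 146 Gad-only cells, 37 cells with both Slc17a8 at the gate and a Gad read, and 27 with neither. Just inside the gate, the lowest members stood at 11.5, 12.5, 16.5 and 23.8 CPM of Slc17a8, the first of them on 9 reads. Just outside, among cells with no Gad read, the nearest stood at 8.67, 5.85, 5.46 and 4.78 CPM, all on plate SER13, and the other 23 cells with neither had no Slc17a8 read. Few cells lay near either edge: 10 of the 146 Gad-only cells had a Slc17a8 read under the gate, and 1 Gad-only cell and 1 cell with both had a summed Gad1 and Gad2 level under 5 CPM.

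**Figure D1:**
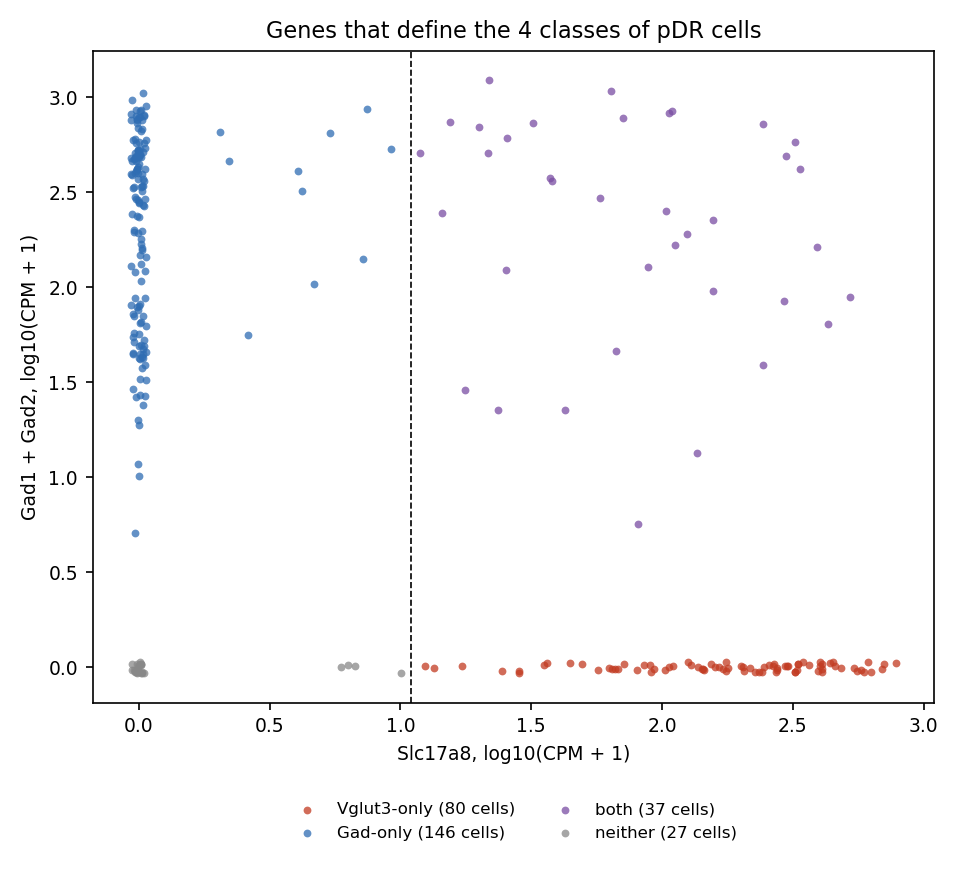
Slc17a8 (horizontal, log10 of CPM + 1) against the sum of Gad1 and Gad2 (vertical, same scale) in the 290 pDR cells, each point a cell moved by a small random amount to show overlap, with the dashed line at the gate of 10 CPM. The 80 Vglut3-only cells lie along the bottom right, 146 Gad-only cells along the left, and 37 cells with both spread over the upper right.

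All 5 plates held members. There were 25 on SER12 (26.9% of its cells), 19 on SER13 (22.4%), 16 on SER25 (37.2%), 8 on SER39 (28.6%) and 12 on SER40 (29.3%), and the exact intervals of these shares overlapped one another. Members had a median of 770067 reads on genes per cell (231674 to 2726883) and the other pDR cells 743435, with medians of 9753.5 and 9786.5 genes with a read. On SER39 and SER40 the members were the shallower cells, with medians of 1135897 against 1612795.5 reads and 880978 against 1126147 reads.

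Every member carried serotonin neuron RNA. Tph2, the rate-limiting enzyme of serotonin synthesis in the brain, Slc6a4, the serotonin transporter, Slc18a2, the vesicular monoamine transporter, and Fev, a transcription factor of serotonin identity, each had a read in 80 of 80 members, with Tph2 at a median of 8611 CPM and never under 1580 CPM. The other vesicular glutamate transporters, Slc17a6 and Slc17a7, and the vesicular GABA transporter Slc32a1 were read in 0 of 80 members, which allows a share of up to 3.75% by a floor of 3 cells and up to 4.51% by the exact interval. Of 10 markers each of microglia and of vascular cells, 5 and 8 were at 0 in the 80 members and 4 and 4 in the 210 other cells. The other cells were more numerous, so these counts do not compare like with like. The summed vascular level was at most 0.911 CPM by plate in members and 2.88 CPM in other cells. The summed oligodendrocyte markers were at 47.3 to 188 CPM by plate in members and 68.2 to 204 CPM in other cells, with Opalin at 0 in both. Ependymal markers were at 8.88 to 49.2 and 10.5 to 19.8 CPM, and markers of other neurons at 0.0925 to 3.44 and 0 to 7.00 CPM. Summed microglia markers were at 28.1 to 61.6 CPM in members and 63.7 to 95.1 CPM in other cells, and their part in the differences below was not tested.

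The members were then compared with all other cells of the same plate, gene by gene. The contrast of a gene is the log2 ratio of the mean CPM of members to the mean CPM of the other cells of that plate, after adding 1 CPM to both, averaged over the 5 plates with equal weight. Of 8341 genes with a mean of at least 10 CPM and a read in at least 20% of cells in either kind, 79 were called higher (0.947% of the genes compared) and 123 were called lower (1.47%), where a call is a contrast past 2-fold with the same sign in all 5 plates. Slc17a8, Gad1 and Gad2 were left out. Since the gate split the same cells, these calls describe the members and test nothing. Taken as a difference of mean log2(CPM + 1), in which few very high cells weigh less, the counts were 149 higher and 135 lower, so the balance of higher to lower depended on the scale. Across all genes compared, the median contrast was −0.02, 8.12% of genes were above 0 in all 5 plates and 9.18% below 0 in all 5.

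Serotonin machinery moved little. Of 19 genes of synthesis, transport, breakdown and serotonergic identity, 18 were compared and 0 were called, with a median contrast of −0.17. Most leaned lower, with 15 of the 18 below 0, against 4432 of all 8341 genes compared. Tph2 stood at a contrast of 0.08 and Slc6a4 at −0.07. Slc18a2 (−0.46), Fev (−0.56) and Gata2 (−0.60), a transcription factor needed in the making of these neurons, were lower in each of the 5 plates but short of 2-fold. Fev, for example, had plate means of 191, 179, 167, 141 and 153 CPM in members, in the order SER12, SER13, SER25, SER39 and SER40, and 276, 233, 257, 224 and 232 CPM in the other cells. The highest member mean was below the lowest mean of the other cells. The same order of plates is used throughout.

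Among 13 genes of glutamate handling, 10 were compared and 1 was called. Slc1a2, which encodes the glutamate uptake transporter GLT-1, averaged 54.8, 44.0, 31.9, 16.4 and 27.4 CPM in members and 8.43, 10.7, 6.07, 6.28 and 5.60 CPM in the other cells, a contrast of 2.02. Every member mean was above every mean of the other cells. Slc1a2 is also an astrocyte marker, and it made up much of the summed level of the 10 astrocyte markers (23.0 to 62.4 CPM in members, 7.83 to 23.8 CPM in other cells). Without it the other 9 summed to 1.11 to 18.4 CPM in members and 1.75 to 13.1 CPM in other cells, and these ranges overlapped. Slc1a2 was read in 62 of 80 members and 76 of 210 other cells. Gfap, Aqp4, Aldh1l1, Gja1, Slc1a3, Fgfr3, Gjb6, Agt and S100b were read in 1, 4, 3, 6, 5, 4, 2, 5 and 14 of 80 members. In the same order they were read in 4, 17, 19, 14, 15, 14, 4, 23 and 40 of 210 other cells. Any part of astrocyte RNA in the level of Slc1a2 was not tested. The neuronal uptake transporter Slc1a1 stood at a contrast of 0.32. Of the GABA handling genes 4 were compared and 0 called.

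**Figure D2:**
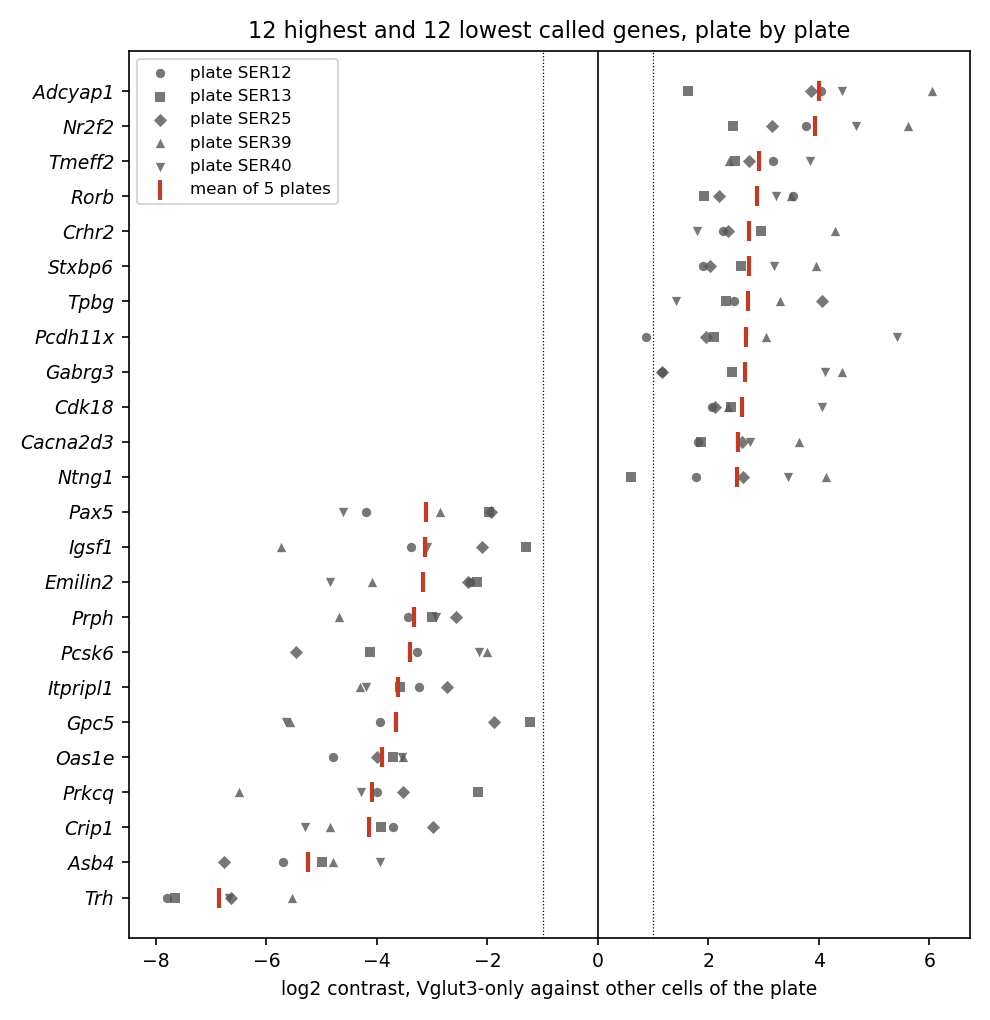
Log2 contrast of Vglut3-only cells against the other cells of the same plate (horizontal) for the 12 highest and the 12 lowest called genes (rows), with 1 grey marker per plate, a red bar at the mean of the 5 plates and dotted lines at 2-fold. Every marker of the upper 12 genes lies above 0 and every marker of the lower 12 below 0, from Adcyap1 at a mean of 4.00 to Trh at −6.86.

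Receptors for neuropeptides came first in the comparison by role. Of 47 such receptors 9 were compared, 3 were called higher and 1 lower. Crhr2, a receptor for urocortins and corticotropin-releasing factor (GRCm38, chr6:55090049-55133016, minus strand), averaged 74.2, 64.6, 62.2, 37.1 and 33.0 CPM in members and 14.6, 7.46, 11.4, 0.939 and 8.84 CPM in the other cells. The plate means did not overlap, the contrast was 2.73 (1.79 to 4.30 by plate), and 56 of 80 members had a read against 61 of 210 other cells. Npy2r, a neuropeptide Y receptor that couples to inhibitory G proteins (chr3:82538383-82548084, minus strand), averaged 47.0, 38.3, 38.0, 17.0 and 34.5 CPM in members and 15.0, 5.69, 6.32, 5.95 and 3.76 CPM in the other cells. The contrast was 2.16. The means did not overlap, but on SER39 only 1 of 8 members stood at 10 CPM or more, and the call was lost when the highest cell of each kind was left out. Oxtr, the oxytocin receptor (chr6:112473683-112489943, minus strand), averaged 16.0, 19.5, 17.2, 21.1 and 19.4 CPM in members and 5.57, 4.59, 5.47, 1.42 and 6.37 CPM in the others. Its contrast was 1.88, and the member means stayed within a narrow band.

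The orexin receptors went different ways. Hcrtr1 was called lower at −1.02, with member means of 124, 196, 92.0, 82.8 and 76.3 CPM against 255, 310, 223, 165 and 173 CPM. Those means overlapped across plates although each plate kept the direction, and the call was lost without SER25 (or without SER40). Hcrtr2 was above the other cells in every plate (0.24 to 1.07) but its contrast of 0.75 did not reach 2-fold. It was read in 65 of 80 members and 109 of 210 other cells. Calcr (−0.55) and Oprl1 (0.08), the calcitonin and nociceptin receptors, were not called.

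The peptides themselves gave the extremes on both sides. Adcyap1, which encodes the neuropeptide PACAP (chr17:93199017-93206537, plus strand), stood at a contrast of 4.00, with member means of 26.0, 22.5, 13.6, 64.8 and 20.5 CPM against 0.647, 6.61, 0, 0 and 0 CPM. Since the other cells were at 0 on 3 plates, the size rests on the added 1 CPM, and with 5 CPM added Adcyap1 stood at 2.35 and Nr2f2 at 2.47. It was a gene of few cells: 18 of 80 members and 10 of 210 other cells had a read, and the call was lost without SER39 (the contrast was 4.59 without SER13) and when the highest cell of each kind was left out. Trh, the precursor of thyrotropin-releasing hormone (chr6:92242061-92244650, minus strand), was read in 0 of 80 members (the same floor of 3.75% and exact upper bound of 4.51%) and in 98 of 210 other cells. Its plate means were 0 in members and 222, 200, 99.1, 45.5 and 101 CPM in the other cells. Since members were at 0, the size of its contrast (−6.86) depends on the added 1 CPM. Of the other 3 peptides compared, Pdyn, the dynorphin precursor, stood at −1.93 with plates on both sides of 0 (−3.43 to 0.37) and was not called, and Nucb2 stood at −0.03.

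The promoters of the 3 receptor genes called higher and of Trh are shown here, from 250 bases before to 50 after the RefSeq start of each gene (GRCm38.p6, written 5′ to 3′ on the gene's strand), to set receptor genes called higher beside the gene with the lowest contrast. The capitals mark AGGTCA on either strand, the core hexamer of DNA sites for nuclear receptors of the Nr2f and Ror families, to which the called genes Nr2f2 and Rorb belong.
Crhr2, chr6:55132967-55133266: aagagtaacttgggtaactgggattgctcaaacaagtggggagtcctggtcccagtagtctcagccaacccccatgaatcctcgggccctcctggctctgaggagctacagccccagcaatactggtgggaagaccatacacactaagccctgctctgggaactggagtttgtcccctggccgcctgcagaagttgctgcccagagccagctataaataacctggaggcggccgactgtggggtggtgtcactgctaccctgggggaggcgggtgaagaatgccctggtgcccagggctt
Npy2r, chr3:82548036-82548335: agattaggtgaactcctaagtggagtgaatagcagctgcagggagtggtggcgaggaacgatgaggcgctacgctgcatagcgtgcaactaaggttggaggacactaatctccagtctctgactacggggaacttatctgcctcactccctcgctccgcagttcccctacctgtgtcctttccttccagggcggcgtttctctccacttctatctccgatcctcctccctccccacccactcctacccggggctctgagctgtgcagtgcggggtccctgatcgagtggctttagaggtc
Oxtr, chr6:112489776-112490075: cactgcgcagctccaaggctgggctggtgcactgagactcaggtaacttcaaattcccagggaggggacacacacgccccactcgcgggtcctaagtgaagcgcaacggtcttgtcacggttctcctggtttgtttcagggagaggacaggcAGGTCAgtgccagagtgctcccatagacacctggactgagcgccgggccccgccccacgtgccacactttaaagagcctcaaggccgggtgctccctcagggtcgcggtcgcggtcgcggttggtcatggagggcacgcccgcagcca
Trh, chr6:92244601-92244900: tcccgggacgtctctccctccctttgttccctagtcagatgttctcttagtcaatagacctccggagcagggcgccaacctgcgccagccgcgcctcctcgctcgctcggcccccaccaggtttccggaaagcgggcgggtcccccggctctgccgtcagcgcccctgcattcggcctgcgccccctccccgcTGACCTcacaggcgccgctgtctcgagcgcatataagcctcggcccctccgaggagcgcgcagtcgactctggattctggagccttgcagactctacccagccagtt
The hexamer occurred once in the window of Oxtr and, on the opposite strand, once in that of Trh, and not in those of Crhr2 and Npy2r. Windows could be matched for 59 of the genes called higher, of which 8 held it (13.6%), and for 94 of those called lower, of which 15 held it (16.0%). A gene counted when any of its windows held the hexamer. By gene, it was held by 933 of the 6545 compared genes with a window (14.3%). Over all genes with a window it was held by 4900 of 27025 (18.1%). By window, it stood in 16.3% of all 32851. The share over compared genes lay between those of the genes called higher and lower. A match of letters is not a binding site.

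Transcription factors were called in both directions, with 4 of 29 compared called higher. Nr2f2, the nuclear receptor COUP-TFII (chr7:70351944-70366735, minus strand), averaged 32.7, 22.9, 24.1, 47.8 and 25.0 CPM in members and 1.48, 3.37, 1.81, 0 and 0.0186 CPM in the other cells, a contrast of 3.93. The groups did not come near each other, and 47 of 80 members had a read against 11 of 210 other cells. After each cell was thinned to 200000 reads these shares were 55.0% and 4.76%. A second gene lies antisense to part of Nr2f2 and the counting did not use strand, so reads of the overlap cannot be assigned. Rorb, a retinoid-related orphan receptor, averaged 61.4, 42.2, 25.9, 22.1 and 36.8 CPM in members against 4.40, 10.4, 4.90, 1.05 and 3.03 CPM. Its contrast was 2.87 without overlap of the means, while 31 of 80 members (38.8%) and 54 of 210 other cells (25.7%) had a read. Maf (1.88) and Foxp1 (1.36) were the other factors called higher.

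Those called lower included Pax5 (−3.12), Bcl11a (−2.19), Klf5 (−1.73), Aff2 (−1.65) and Tcf4 (−1.30). The call of Aff2 was lost without SER12. Pax5, a paired-box factor of the midbrain-hindbrain boundary, averaged 0.153, 3.87, 3.20, 1.22 and 0 CPM in members and 20.1, 18.1, 15.1, 15.1 and 23.5 CPM in the other cells. It too has genes antisense to it. Sox14 had a mean under the level needed for the comparison, yet it was read in 0 of 80 members and 99 of 210 other cells. Tox2 (−0.53) and Id4 (−0.02) were not called.

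Lists of ventral and dorsal pDR genes named in the study's text were counted as well. The study chose them on these same samples, so they are not independent evidence of direction. Of 11 ventral genes 6 were compared, 3 were called higher (Crhr2, Npy2r and Syt2 at 2.25) and 0 lower, with a median contrast of 1.46. A gene could pass the filter through the kind of cell in which it was high, so the compared genes do not stand for the whole list. Among the ventral genes not compared, Cdh6 stood at 0.91, Sox1 at 0.57, Npas1 at −0.30 and Npas3 at −0.35. Hcrtr2 (0.75), Esr2 (0.36), an oestrogen receptor, and Htr1d (−0.59), a serotonin autoreceptor, were not called. Of 12 dorsal genes 5 were compared, under the same limit, and all 5 were called lower. They were Trh, Pax5, Bcl11a, Ret (−1.89), the receptor of GDNF family ligands, and Aff2. Among the dorsal genes not compared, Sox14 stood at −3.21, Kcns1 at −1.82, Adra1a at −1.31 and Drd2 at −0.48. Crh, listed as dorsal, went the other way in its mean (13.6 CPM in members, 4.07 CPM in others) with plates on both sides of 0, and it was too rare to be compared. Of 20 genes given for caudal DR and MR cells, 2 were compared. Chrm2 was called lower and Calcr was not called.

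Receptors for small transmitters followed the same mixed course. Htr5b, a serotonin receptor of the 5-HT5 family (chr1:121509842-121528465, minus strand), averaged 77.3, 51.7, 63.1, 44.0 and 44.4 CPM in members and 24.8, 5.60, 24.5, 20.3 and 10.4 CPM in others, a contrast of 1.80 without overlap. It was read in 62 of 80 members and 55 of 210 other cells, and it was the 1 gene called of 4 serotonin receptors compared. Htr1a (−0.14) and Htr1b (−0.26), the main autoreceptors, were not called. Of 9 amine and acetylcholine receptors, Chrna4, a nicotinic receptor subunit, was called higher at 1.51. The histamine receptors Hrh1 (−1.22) and Hrh3 (−1.46) and the muscarinic receptor Chrm2 (−2.47) were called lower. Chrm2 averaged 2.47, 9.51, 1.13, 3.53 and 1.38 CPM in members against 20.6, 22.2, 17.6, 20.2 and 20.9 CPM. The other cells were almost level across plates and every member mean lay under them.

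None of 12 ionotropic glutamate receptors compared was called. Of the 12, 7 stood above 0 and 5 below, with a median contrast of 0.08. The largest departure was on the lower side, at −1.48, and it missed the call although past 2-fold. Grin2a, an NMDA receptor subunit, came nearest on the higher side with a contrast of 0.93 and a higher mean in every plate. Grin2a was named after its values were seen. Among 16 metabotropic glutamate and GABA receptors, Grm7, a presynaptic group III metabotropic receptor, averaged 51.2, 54.1, 51.9, 51.9 and 53.8 CPM in members and 20.9, 20.2, 27.3, 11.1 and 18.6 CPM in others. Member means were nearly the same on all 5 plates, the contrast was 1.43, and 78 of 80 members had a read against 109 of 210 other cells. Gabrg3, a GABA-A receptor subunit, stood at 2.66 and was read in 64 of 80 members and 52 of 210 other cells.

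Channel genes were mostly level. Of 30 potassium channel genes, 0 were called higher and 1 lower, Kcng4 at −1.11, whose call was lost without any 1 of SER13, SER39 or SER40. Of 28 sodium, calcium, HCN and TRP channel genes, 3 were called higher, and all 3 encode auxiliary subunits or relatives of them. Cacna2d3, a calcium channel alpha2-delta subunit, averaged 29.8, 38.0, 22.3, 48.8 and 38.2 CPM in members and 7.76, 9.75, 2.84, 2.98 and 4.77 CPM in others (contrast 2.54). Cacng5, a gamma subunit that also acts as an AMPA receptor auxiliary protein, averaged 35.6, 39.9, 45.2, 196 and 73.1 CPM in members and 8.92, 9.72, 9.18, 10.7 and 12.5 CPM in others (contrast 2.51). For Cacng5 the mean of the 8 members of SER39 was far above the member means of the other plates, and the other plates still gave non-overlapping means. Cacng4 was called at 1.03, a call lost without SER12 or SER25. Release machinery gave 1 call of 31 genes, Syt2, a fast calcium sensor, at 2.25. Syt2 was read in 27 of 80 members and 16 of 210 other cells, SER12 held a plate contrast of only 0.15, and the call was lost without SER40 (contrast 1.62).

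Wiring genes gave single calls in both directions. Of 25 axon guidance genes 4 were called higher and 1 lower, with a median contrast of 0.17. Slit2, a repulsive guidance ligand (chr5:47983138-48307733, plus strand), averaged 47.9, 42.0, 67.8, 61.6 and 51.1 CPM in members and 10.5, 6.91, 16.8, 9.87 and 5.18 CPM in others, a contrast of 2.42. These means did not overlap, and 75 of 80 members had a read against 72 of 210 other cells. Ntng1, a netrin-G axon protein, stood at 2.52 and Epha5, an ephrin receptor, at 1.12, and both calls were lost without SER39. Sema6d stood at 1.26 and Sema6a at −1.52, members of 1 class of transmembrane semaphorins in opposite directions.

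Of 42 adhesion genes 3 were called higher and 4 lower. Pcdh11x (2.68, or 1.99 without SER40) and Pcdh15 (1.89), both protocadherins, and Cntnap4 (1.40), a contactin-associated protein, were higher. After each cell was thinned to 200000 reads, these genes were read in 48.75, 71.25 and 48.75% of members. The shares were near these in cells with both Slc17a8 and a Gad read, at 51.4, 62.2 and 45.9%. They were lower in Gad-only cells (17.1, 17.8 and 26.0%) and in cells with neither (7.41, 37.0 and 25.9%). Cdh13, or T-cadherin, was abundant in both kinds of cell and was called lower at −1.57, with member means of 253, 348, 231, 236 and 311 CPM and means of 905, 891, 705, 740 and 820 CPM in the others. All 5 plates gave a difference of similar size (−1.83 to −1.35). Pcdh18 (−1.49), Tenm2 (−1.10) and Pcdh17 (−1.02) were also lower, Tenm2 not without SER40 and Pcdh17 not without SER12 or SER39. The calcium-binding proteins gave Calb2, or calretinin, higher at 1.46 and Vsnl1, or visinin-like 1, lower at −1.40. Vsnl1 averaged 97.6, 159, 53.8, 130 and 129 CPM in members and 285, 267, 179, 427 and 315 CPM in others, again without overlap. Of 7 immediate-early genes, Dusp6 (−1.07) was called lower, a call lost without SER40, and Fos (0.09) and Jun (0.52) were not called.

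The remaining genes among the 12 highest contrasts belonged to no receptor or channel list. As linear ratios with 1 CPM added, they were Tmeff2 (7.58-fold), a transmembrane protein with follistatin-like domains, Stxbp6 (6.63-fold), a syntaxin-binding protein, Tpbg (6.56-fold), the trophoblast glycoprotein, and Cdk18 (6.07-fold), a cyclin-dependent kinase. Tmeff2 was read in 52 of 80 members and 28 of 210 other cells, and Cdk18 in 50 of 80 and 19 of 210. Both Tpbg and Cdk18 have antisense neighbours.

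Among the lowest, Asb4, an ankyrin-repeat and SOCS-box protein (chr6:5383386-5433022, plus strand), averaged 4.77, 8.07, 0.198, 8.02 and 16.0 CPM in members and 300.2, 286, 130, 248 and 259 CPM in other cells, a contrast of −5.24. Members with a read numbered 13 of 80, against 151 of 210 other cells. Prkcq, a protein kinase C, stood at −4.10 (−3.50 without SER39) and Crip1, a LIM-domain protein, at −4.15. Oas1e, of the oligoadenylate synthetase family, stood at −3.91 with a read in 3 of 80 members and 136 of 210 other cells. It belongs to a family of close paralogs whose reads the counting could split, so its level is uncertain. Pcsk6, a proprotein convertase, stood at −3.40 with a read in 23 of 80 and 174 of 210 cells, and Prph, the intermediate filament peripherin, at −3.33. Gpc5, Itpripl1, Emilin2 and Igsf1 completed the 12, between −3.66 and −3.12, with Gpc5 at −4.26 without SER13 and Igsf1 at −2.46 without SER39.

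The members were next set beside each of the 3 classes of other cells. These classes make up the other cells on which the calls were made, and 146 of those 210 cells were Gad-only. Agreement with a class was thus partly fixed by the calls, and the counts describe which class a call rests on. Against Gad-only cells, 78 of the 79 genes called higher were past 2-fold in the same direction (1.74% of all compared genes were past 2-fold higher there). Against cells with both markers 42 were (2.11% of all genes), and against cells with neither 57 were (6.75% of all genes, from 4 plates and few cells). Of the 123 genes called lower, 119, 63 and 47 were past 2-fold in the same direction against the Gad-only, both and neither cells, where 2.00%, 1.27% and 1.47% of all genes were.

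The genes fell into patterns over the classes. Nr2f2 was read in 58.8% of members, 5.41% of cells with both, 0.685% of Gad-only cells and 29.6% of cells with neither. It was thus rare in the cells that shared Slc17a8 with the members. Trh, in contrast, was read in 21.6% of cells with both, 61.0% of Gad-only cells and 3.70% (1 of 27) of cells with neither. Cells with neither resembled the members in some genes and not in others. They had a read of Cacng5 in 25 of 27 cells, of Grm7 in 26 of 27 and of Calb2 in 17 of 27, and the contrast of members against them was −0.05 for Grm7 and 0.31 for Calb2. They had a read of Crhr2 in 6 of 27 cells and of Npy2r and Htr5b in 2 of 27 each, where the contrasts of members against them were 4.42, 4.03 and 5.36. Htr5b and Npy2r stood between in the cells with both, read in 56.8% and 54.1% of them. At 200000 reads per cell the share of members with a read of Htr5b was 76.2% and of Npy2r 57.5%, close to the shares at full depth (77.5% and 60.0%).

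**Figure D3:**
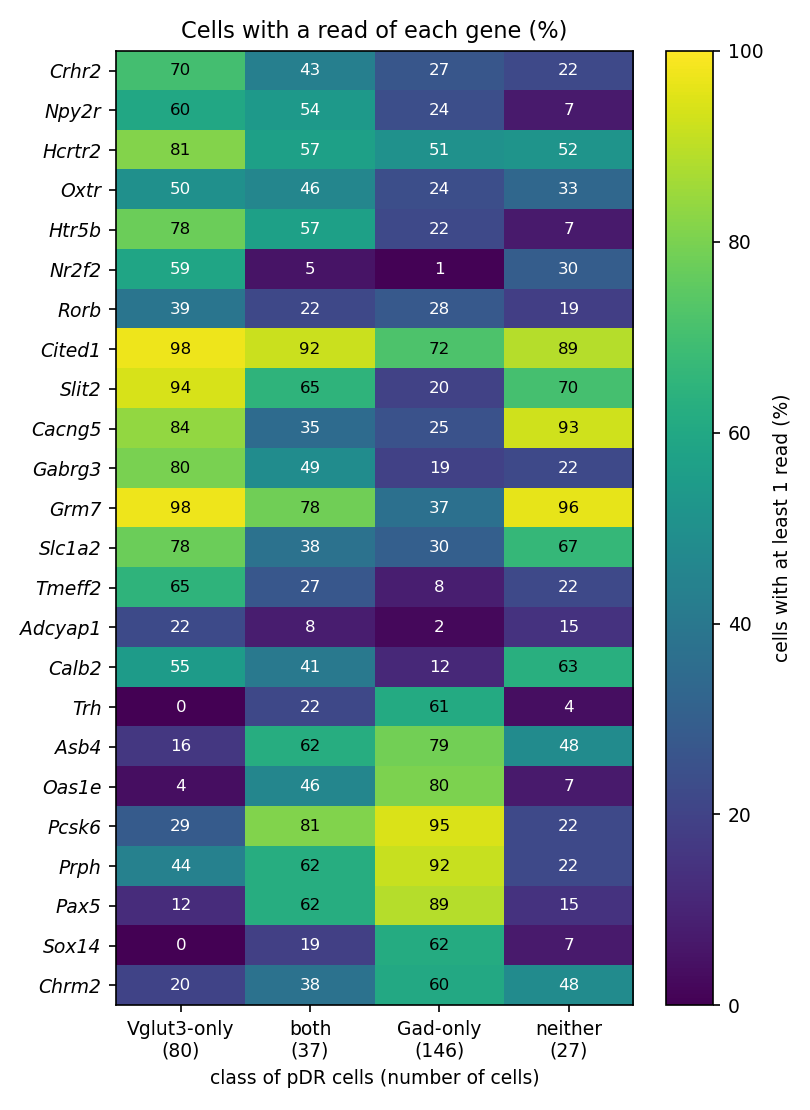
Share of cells with at least 1 read (percent, colour and printed number) of 24 genes (rows) in the 4 classes of pDR cells (columns, with cell numbers). Nr2f2 runs 59, 5, 1 and 30% over Vglut3-only, both, Gad-only and neither cells, and Trh runs 0, 22, 61 and 4%, while Grm7 and Cacng5 are frequent in the Vglut3-only and the neither cells.

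The members were not uniform. At 10 CPM or more, Slit2 was on in 70 of 80 members, Cited1 in 76, Htr5b in 60, Hcrtr2 in 58 and Crhr2 in 54. Npy2r was on in 43, Nr2f2 in 41, Pcdh11x in 37, Tpbg in 32 and Rorb in 28. Adcyap1 was on in 14, Nos1, the neuronal nitric oxide synthase, in 13 and Sst, the somatostatin precursor, in 6. Cited1, a transcriptional co-regulator, Nos1 and the pairs below were picked after their values were seen. By plate, Crhr2 was on in 19, 12, 11, 4 and 8 members and Nr2f2 in 16, 9, 7, 4 and 5.

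Split at 10 CPM of Crhr2, the 54 members at or above that level and the 26 under it differed in other genes. This cut is a description, and no clustering was tested. All 28 members with Rorb at 10 CPM or more were also at that level for Crhr2, as were 35 of 41 with Nr2f2, 37 of 43 with Npy2r and 48 of 58 with Hcrtr2. Of the 26 members under that level for Crhr2, 20 had Tpbg, against 12 of the 54 above it. All 6 members with Sst were under it, and 5 of them had Syt2. Over the 80 cells, Pearson's r of log2(CPM + 1) was −0.65 between Crhr2 and Tpbg (−0.64 after the mean of each plate was removed) and 0.53 between Crhr2 and Rorb (0.53). It was 0.60 between Nr2f2 and Rorb (0.61) and −0.43 between Crhr2 and Sst (−0.40). These values describe cells that share plates and libraries of unequal depth. The r with the log2 number of reads was 0.13 for Crhr2, 0.02 for Tpbg and 0.01 for Rorb.

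A small set of members carried Adcyap1 and Nos1 together. Both were at 10 CPM or more in 10 members, which were 10 of the 14 with Adcyap1 and of the 13 with Nos1, and r was 0.70 (0.68 within plates). All 13 members with Nos1 had Cacng5, which was on in 52 of all 80 members. Of these 13, 8 had Crh, which was on in 10 of 80, and 4 were among the 8 members of SER39. Of the 14 with Adcyap1, 13 had Crhr2, which was on in 54 of 80. The members with Asb4 at that level, 11 in all, lay elsewhere: 9 of them had Tpbg, 3 had Crhr2 and 2 had Htr5b, and r between Htr5b and Asb4 was −0.55 (−0.50 within plates).

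**Figure D4:**
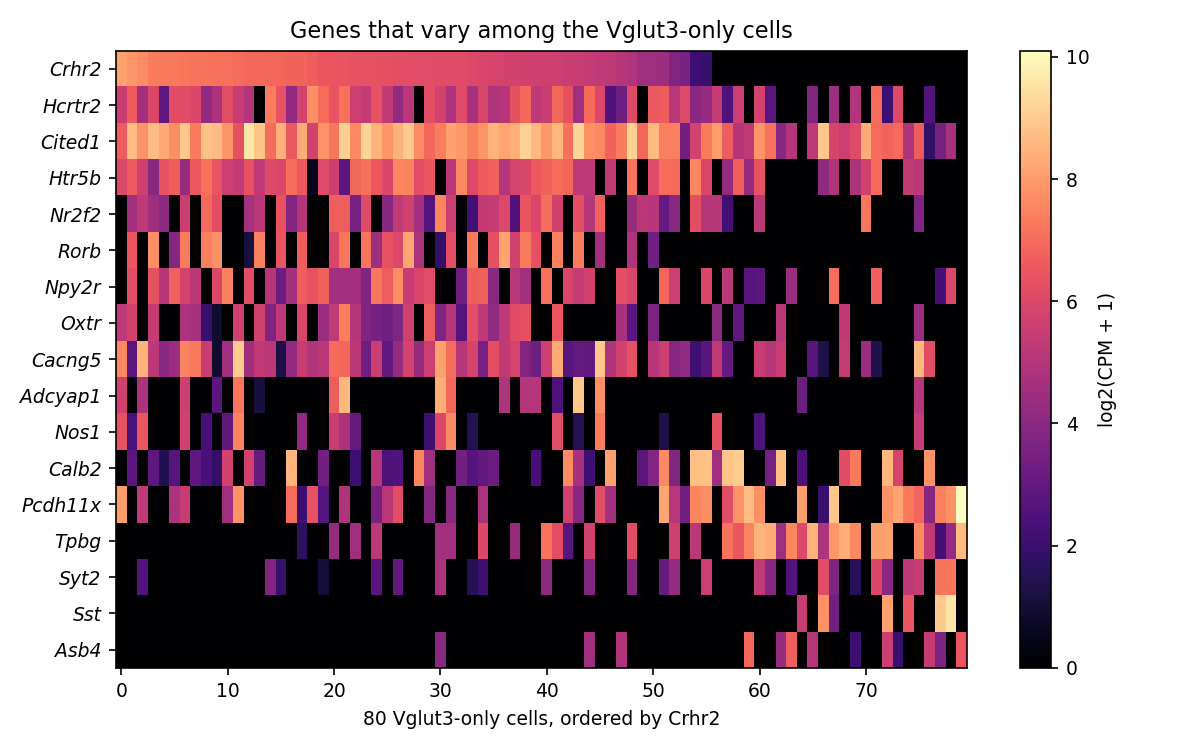
Level of 17 genes (rows, log2 of CPM + 1 as colour) in the 80 Vglut3-only cells (columns), ordered from the highest to no read of Crhr2. Rorb and Nr2f2 are denser on the left, where Crhr2 is on, and Tpbg is denser on the right, where all 6 cells with Sst at 10 CPM or more are found.

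The gate was also set on the 11 plates of the All DR dissection, which had no part in the choice of the members. There 397 of 709 cells (56.0%, exact interval 52.3 to 59.7%) were Vglut3-only, with plate shares from 44.6 to 66.7%. The labels do not say which of these cells came from the MR or the caudal DR, so a different mixture of cells cannot be told apart from a different state. Of the 79 genes called higher in pDR, 73 had the same sign there (92.4%, against 48.4% of all compared genes above 0) and 15 were past 2-fold (0.312% of all genes). Of the 123 called lower, 115 had the same sign (93.5%, against 51.6%) and 22 were past 2-fold (0.360%). Under the full rule, with the same sign in all 11 plates, 8 genes were called higher (0.0974%) and 13 lower (0.158%), of which 6 and 11 were calls in pDR.

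Of the 60 called genes taken by the naming rule, 5 met the full rule on the All DR plates, 50 kept their sign and missed it, Npy2r and Trh among them, and 5 changed sign. Htr5b, Npy2r and Crhr2 had contrasts past 2-fold there, at 2.55, 2.43 and 2.25, and Crhr2 was above the other cells in 11 of 11 plates. Asb4 (−4.41, lower in 11 of 11) and Trh (−2.96, lower in 9 and higher in 0) did as well. The genes with the highest contrasts in pDR did not. Nr2f2 stood at 0.39 and Adcyap1 at 0.50, and Nr2f2 had a read in 84.4% of Vglut3-only and 51.3% of other cells of that dissection. Named genes that changed sign were Chrna4 (−0.58), Epha5 (−0.39), Sema6d (−0.09), Kcng4 (0.16) and Pcdh17 (0.28).

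**Figure D5:**
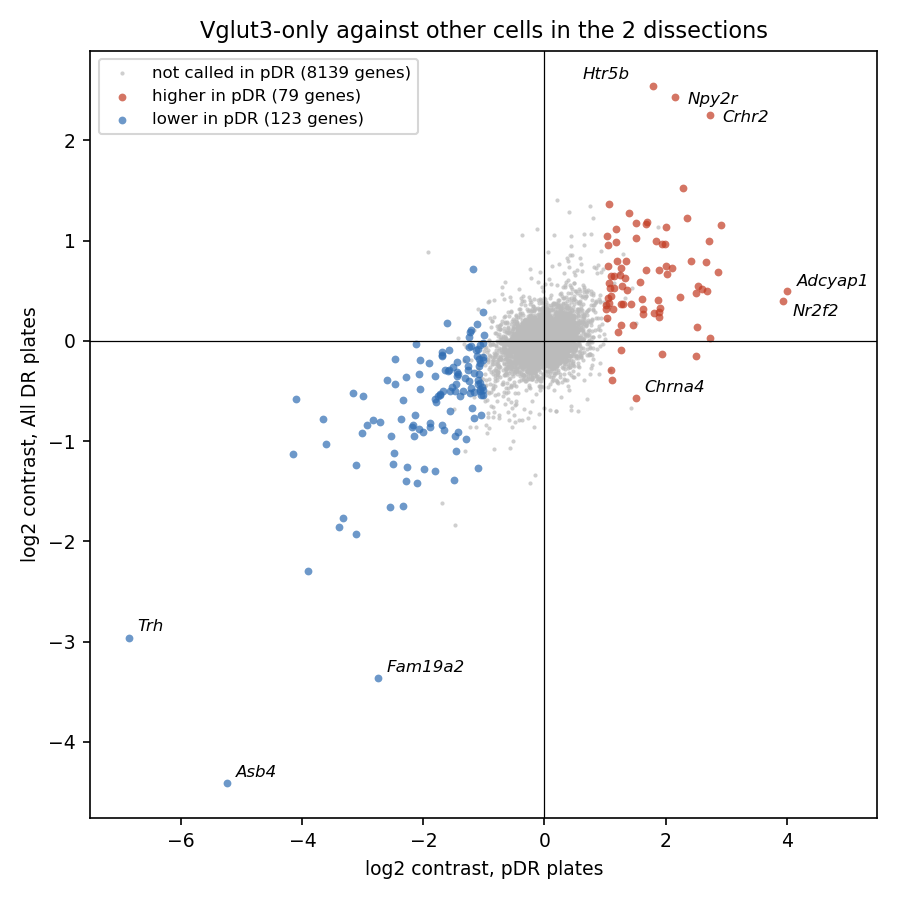
Log2 contrast of Vglut3-only cells against other cells of the same plate in the pDR plates (horizontal) and the All DR plates (vertical), each point a gene, coloured by its call in pDR. Most called genes keep their sign but lie nearer 0 in the All DR plates, with Htr5b, Npy2r and Crhr2 at the upper right and Nr2f2 and Adcyap1 close to the horizontal line.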

How the data were processed

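The authors deposited 1 table of CPM for 53263 genes in 999 cells, of 1536 labelled cells. Per the labels' processing notes, reads were demultiplexed with bcl2fastq 2.19.0.316, aligned to mm10/GRCm38 with STAR 2.6.1a and counted with HTSeq 0.11.2. The study's methods give unstranded counting and removal of Y-linked genes. The annotation version is not given in the sources used here. The CPM steps gave whole reads for 100% of the 9386862 values above 0 (tolerance 0.001 reads), with 96834 to 2780443 reads per cell. With 1 sample per dissection no count test was run.

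Contrasts, filters and calls were computed as the report states, with 1 CPM added before log2, in plates with at least 5 cells of each kind (3 for the classes). Named are the 12 highest and 12 lowest called genes, called genes of 26 lists (at most 6 per list and direction) and a few uncalled ones. Members and lists were chosen with earlier results of these data known. Python 3.11.15, NumPy 2.4.6, pandas 2.3.3 and SciPy 1.17.1 were used, and the scripts were tested on simulated data. Gene positions came from the GENCODE annotation of GRCm38 and promoters from RefSeq on GRCm38.p6. The labels give plates but no animals, so the spread between plates may be technical. Alternatives covered the gate, depth, filters, the added CPM and each plate left out. A few genes of the lists are not reported here.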

Additional observations from a re-analysis of the deposited data

Results flagged for a closer look

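One value stood apart from the rest of its group. The contrast of Cdk18 was 4.06 on the log2 scale on plate SER40 and 2.07 to 2.41 on the other 4 plates, a gap of 0.828 of the range, where 0.71 is the limit for 5 values. On SER40 Cdk18 averaged 15.6 CPM in the Vglut3-only cells and 0 CPM in the other cells. In all, 25 groups of 5 plates were examined, and chance marks about 1 in 20. The cause was not tested.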

How the results depend on the processing

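The share of Vglut3-only cells lay between 25.9 and 29.8% when each plate was left out in turn, and the counts of genes lay between 81 and 93 higher and 132 and 154 lower. Those counts exceed the 79 and 123 of all plates, and a call then needs the same sign in fewer plates. The count of genes higher became 135 with only Gad-only cells as the others, 149 with the difference of mean log2(CPM + 1) (135 lower) and 130 with no filter beyond a read in 3 cells. The count lower became 296 with no such filter and 75 with a minimum of 20 CPM. On the All DR plates the counts were 8 and 13, and Chrna4 (−0.58), Kcng4 (0.16), Sema6d (−0.088), Epha5 (−0.39) and Pcdh17 (0.28) changed sign. Of the 60 called genes taken by the naming rule, 0 changed sign under any alternative within pDR. Leaving out the highest cell of each kind gave 57 higher and 173 lower and ended 11 named calls (Adcyap1, Ntng1, Syt2, Npy2r, Aff2, Chrna4, Kcng4, Pcdh18, Maf, Calb2 and Dusp6). Keeping only cells with 8000 genes or more, an alternative added after seeing the data, gave 80 higher and 127 lower. After thinning to 200000 reads 79 of the 80 members were the same cells. Genes under a mean of 10 CPM in both kinds of cell were not compared. Every contrast was already taken within plates.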

Other observations

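Called genes outside the lists, named after their values were seen and given singly, included the following. Nefl (1.19) and Nefm (1.18), the light and medium neurofilament chains, were both higher in the Vglut3-only cells, while Prph, another neuronal intermediate filament gene, was lower (−3.33). Plcb1, a phospholipase C, stood at 2.36 and Lpar1, a lysophosphatidic acid receptor, at 2.28. Prlr, the prolactin receptor, stood at −1.45. Fam19a2, which encodes a secreted chemokine-like protein, was lower in pDR (−2.75) and more so on the All DR plates (−3.36, lower in 11 of 11).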
